A study of Mus musculus with 12 samples.

Results

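Interferon-stimulated genes were followed through 12 single cultured cardiac progenitor cells (CPCs) of the mouse. A list of 40 such genes was used, and all 40 were found among the 21729 genes of the count table. The list, and CPC3 as the cell to set against the others, were chosen by their measured values in these same 12 cells, so the levels in CPC3 are given as a description with no test. The study compared CPCs before and after culture. The cells had been sorted with magnetic beads as c-Kit+ and Lin− (without surface markers of blood lineages) from the non-myocytes of hearts of adult FVB mice, labelled as female and aged 12 weeks. All 12 cells shared the same culture: adherent growth on gelatin through 5 passages, in medium with 10% serum, 20 ng/ml epidermal growth factor and, at 10 ng/ml each, leukemia inhibitory factor and basic fibroblast growth factor. Hearts of a pair of mice were pooled for plating, and the cells for sequencing were picked by hand under a microscope. They form 1 group, with no cells given interferon and no fresh cells analysed here. Each cell gave 1 library, and no label ties a cell to an animal or dish, so the group counts as 1 sample and no test was made between cells.

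Interferons are secreted proteins that warn neighbouring cells of infection. Type I interferons bind the receptor pair Ifnar1 and Ifnar2, type II interferon binds Ifngr1 and Ifngr2, and the Janus kinases Jak1, Jak2 and Tyk2 then phosphorylate Stat proteins. With Irf9 these form a complex that binds the interferon-stimulated response element (ISRE) in promoters, whereas pairs of Stat proteins bind the gamma-activated sequence (GAS). The genes switched on this way block viral RNA and translation, sense foreign nucleic acid, attach the ubiquitin-like protein Isg15 to other proteins and build GTPases that attack vacuoles. Many of them are also expressed at a low basal level without added interferon.

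Promoter sequences are shown first for 7 genes of the list picked after their values were seen: 5 that were high in both CPC3 and CPC7 (Isg15, Ifit1, Ifit3, Irgm1 and Bst2) and 2 that were high in CPC3 with 0 counts in CPC7 (Rsad2 and Oas3). Each line holds the 160 bases before the RefSeq start (build GRCm38.p6, the assembly of mm10), read 5′ to 3′ on the strand of the gene. Capitals mark matches to the ISRE core, GAAANNGAAA or TTTCNNTTTC.
Isg15 promoter, chr4:156200819-156200978, minus strand: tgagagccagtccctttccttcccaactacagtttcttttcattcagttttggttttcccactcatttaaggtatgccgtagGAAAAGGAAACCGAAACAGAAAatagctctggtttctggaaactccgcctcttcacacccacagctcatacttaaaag
Ifit1 promoter, chr19:34640729-34640888, plus strand: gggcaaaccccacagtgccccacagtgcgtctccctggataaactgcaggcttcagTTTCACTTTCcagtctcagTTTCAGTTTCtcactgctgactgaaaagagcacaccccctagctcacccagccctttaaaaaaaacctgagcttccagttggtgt
Ifit3 promoter, chr19:34583369-34583528, plus strand: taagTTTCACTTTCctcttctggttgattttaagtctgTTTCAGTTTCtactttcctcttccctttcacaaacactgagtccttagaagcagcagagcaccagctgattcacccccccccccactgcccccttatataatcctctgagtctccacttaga
Irgm1 promoter, chr11:48871421-48871580, minus strand: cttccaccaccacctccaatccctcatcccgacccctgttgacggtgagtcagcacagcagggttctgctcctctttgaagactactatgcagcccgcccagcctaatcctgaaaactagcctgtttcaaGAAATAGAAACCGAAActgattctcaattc
Bst2 promoter, chr8:71537473-71537632, minus strand: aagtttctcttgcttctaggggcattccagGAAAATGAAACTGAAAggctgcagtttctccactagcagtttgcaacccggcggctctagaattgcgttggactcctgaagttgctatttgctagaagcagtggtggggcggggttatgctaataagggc
Rsad2 promoter, chr12:26456453-26456612, minus strand: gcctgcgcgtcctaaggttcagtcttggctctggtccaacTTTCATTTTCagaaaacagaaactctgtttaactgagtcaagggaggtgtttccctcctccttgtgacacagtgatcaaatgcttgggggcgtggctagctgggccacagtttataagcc
Oas3 promoter, chr5:120777660-120777819, minus strand: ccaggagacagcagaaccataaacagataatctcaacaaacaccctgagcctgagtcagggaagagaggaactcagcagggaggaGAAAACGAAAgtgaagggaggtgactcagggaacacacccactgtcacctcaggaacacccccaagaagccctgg

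Of the 40 genes, 29 matched a RefSeq promoter window, which runs from 250 bases before to 50 bases after a start. No window was matched for Dhx58, Ifi27, Iigp1, Mx1, Mx2, Oas2, Parp14, Parp9, Rtp4, Usp18 and Zbp1. The ISRE core was searched on both strands, and the GAS was searched as TTCNNNGAA, which reads the same on both strands. An ISRE core was found in 16 of the 29 genes (48.5% of their 33 windows), beside 3.44% of all 32851 windows of the same length. A GAS was found in 9 of the 29 genes (27.3% of their windows), beside 8.30% of all windows. Matches may overlap: the promoter of Isg15 held 3 overlapping ISRE cores between 78 and 57 bases before the start, and those of Bst2, Irgm1, Gbp3 and Oas1a held 2 overlapping ones. In Ifit1 and Ifit3 the 2 cores lay apart, whereas Rsad2 and Oas3 held 1 core each. By class, 8 of the 11 genes with a window that were high in CPC3 and CPC7 held an ISRE core, as did 6 of the 14 that were high in CPC3 and not in CPC7 and 2 of the 4 that were not high in CPC3. A GAS was held by 2 of those 11 genes, 6 of those 14 and 1 of those 4. A match is a run of letters and not a measured binding site.

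**Figure D1:**
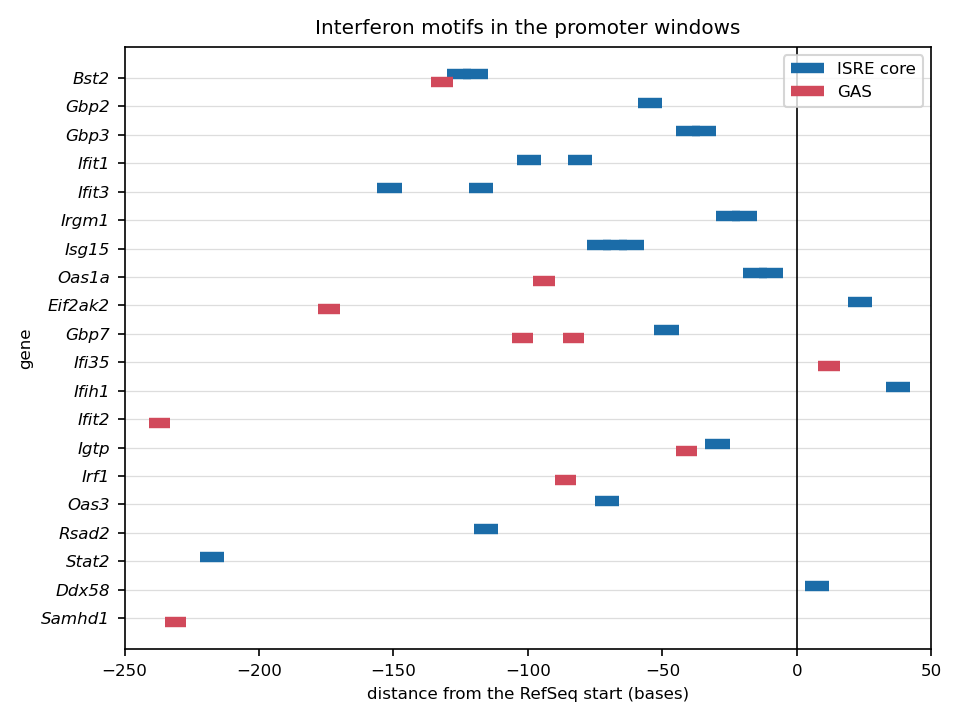
Positions of ISRE cores (blue) and GAS matches (red) in the RefSeq promoter windows, for the genes of the list with a match. The horizontal axis is the distance from the start in bases and each row is a gene. The ISRE cores of Isg15 overlap as a block, and those of Eif2ak2, Ifih1 and Ddx58 lie after the start.

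Total counts per cell ran from 3453708 to 5690184, and levels are given as CPM (counts scaled to 1000000 per cell). A gene with 0 counts could lie at up to 0.527 to 0.869 CPM depending on the cell, which is what 3 counts amount to. Molecular identifiers were not used in these libraries, so this limit and the exact Poisson intervals below cover counting error only. Kit, the gene of the surface protein used in the sort, had a count in 1 of the 12 cells, CPC10, at 3.94 CPM. CPC3 stood apart from the rest in other respects as well. Of 11 myeloid marker genes, 5 had a count in CPC3 and their sum was 1623 CPM, against 41.1 CPM in CPC7 and 2.99 to 75.6 CPM in the other 10 cells. Almost all of that sum was Cd53 (1463 CPM). Past the fold set out below were 3 of the 11 genes (Cd53, Cd68 at 69.1 CPM and Csf1r at 59.1 CPM), beside 2.84% of all genes. The median log2 fold was 3.52 over the 5 genes with a count in CPC3, and the others had no fold. Lyz2 was at 30.3 CPM and Adgre1 at 1.58 CPM in CPC3, whereas Ptprc, Itgam, Fcgr3, C1qa, Tyrobp and Lcp1 had 0 counts there. CPC10 differed from the rest in endothelial markers, which summed to 9810 CPM, against 58.5 CPM in CPC3 and 30.2 CPM in CPC7. In CPC3, Emcn (26.4 CPM) and Plvap (23.2 CPM) of that list were past the fold, as was Pecam1 (10.3 CPM) in CPC7. Of 10 mural markers none was past the fold in CPC3 and Acta2 (90.7 CPM) and Mcam (35.9 CPM) were past it in CPC7. Only Acta2, Mcam and Pdgfrb of that list had a fold, as the rest did not exceed the level of 3 counts in either value compared. The median log2 fold of these genes was −2.19 in CPC3 and 3.66 in CPC7. Of 8 lymphoid and 10 cardiomyocyte markers none was past the fold in either cell. The summed Y-linked genes (Ddx3y, Eif2s3y, Kdm5d and Uty) were at 9.76 CPM in CPC3, at 63.7 CPM in CPC7 and at 122 to 267 CPM in the other 10 cells, so CPC3 and CPC7 were also the lowest 2 cells of that measure. Y-linked counts in all 12 cells go against the label, which names female mice, and no label ties a cell to a mouse, so the sex of the donors is uncertain. The part of these differences in the results below was not tested.

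The first question was how many of the genes were raised in CPC3. A gene was counted as high in a cell when it reached 10 CPM and 4 times the median of the other 11 cells, with that median set to at least the level of 3 counts. In CPC3 33 of the 40 genes were high, beside 2.84% of the 14462 genes with a count in any cell. The 40 genes together held 63367 counts in CPC3, which was 1.67% of its counts or 16708 CPM (95% interval 16578 to 16839). The median sum of the other 11 cells was 968 CPM, so the sum in CPC3 was 17.3 times as large. All 40 genes had a count in CPC3, against a median of 31 genes in the other 11 cells. For 34 genes CPC3 was the highest of the 12 cells, where 7.63% of all genes had their highest value. The median log2 fold of the 40 genes in CPC3 over the median of the other cells was 4.05, beside −0.24 over the 11491 genes with a fold there. These shares belong to the values that chose the list and CPC3, and nothing further is read from them.

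**Figure D2:**
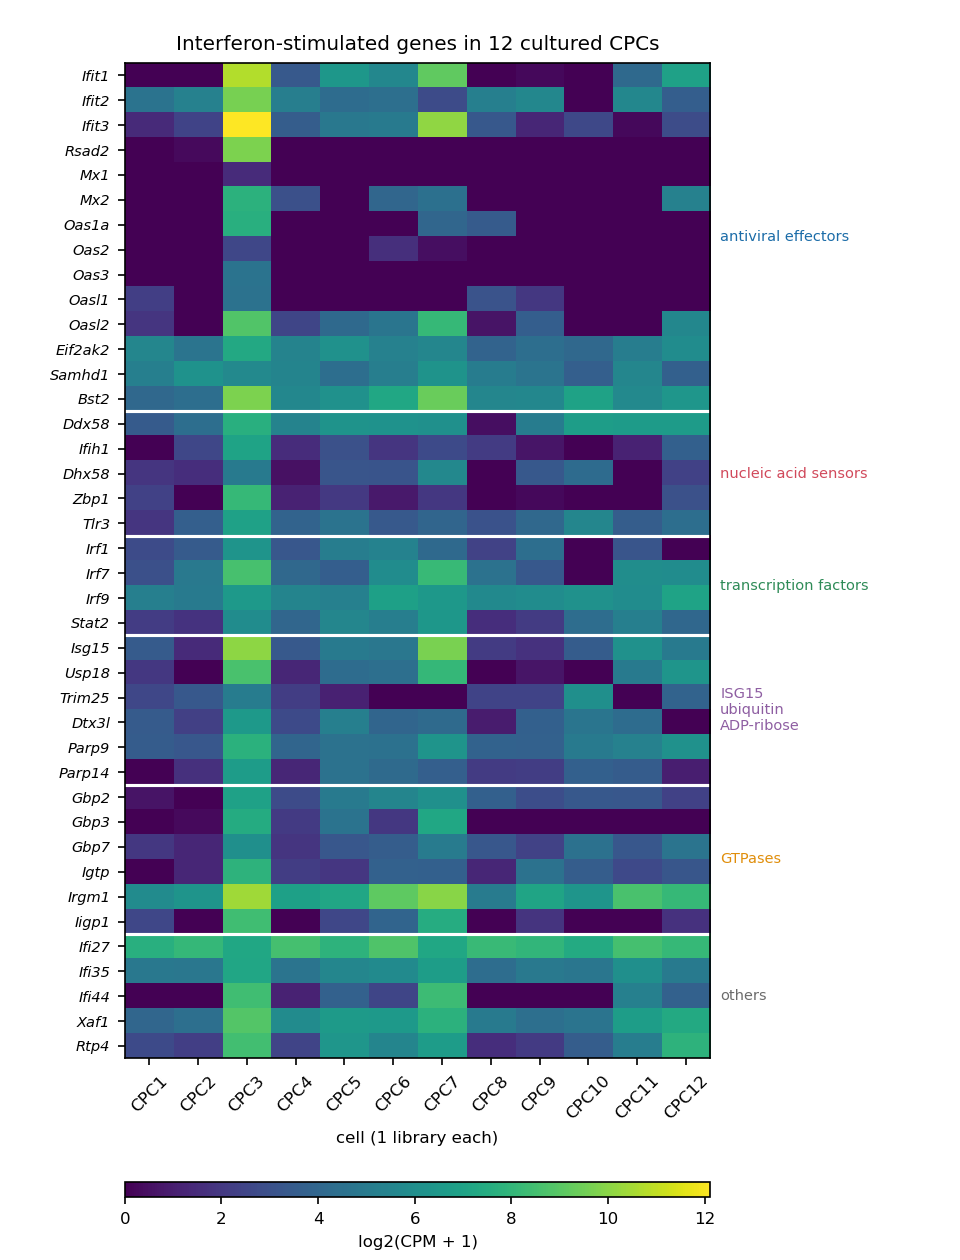
Levels of the 40 genes (rows, grouped by role) in 12 single cells (columns), as log2(CPM + 1). The column of CPC3 is bright for nearly all rows, that of CPC7 for some rows of each group, and the rows of Rsad2, Mx1 and Oas3 are dark outside CPC3.

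The next question was whether the genes were raised in any second cell. In CPC7 a part of them was: 17 of the 40 genes were high there, beside 2.61% of all genes. All 40 genes summed to 6920 CPM in CPC7 (95% interval 6849 to 6992). That sum was 7.37 times the median of the 10 cells other than CPC3 and CPC7, which was 939 CPM, and CPC3 held 2.41 times the sum of CPC7. CPC7 was the highest cell for 3 genes (Samhd1, Dhx58 and Stat2), where 7.93% of all genes had their highest value. Of the 33 genes high in CPC3, 16 were also high in CPC7, beside 13.6% of the 411 genes of the table that were high in CPC3, and the comparisons of the 2 cells share the other 10 cells as their reference. Stat2 was the remaining gene high in CPC7. With the mean of the other 11 cells as the reference, which CPC3 raises, 9 genes were past the fold in CPC7, and with their highest value 10 were past it in CPC3 and none in CPC7. Counting any second cell, 21 of the 33 genes were high in at least 1 cell beside CPC3, and the same was true of 59.9% of those 411 genes, a share near that of the list. The 12 genes of the list that were high in CPC3 alone were Ifit2, Rsad2, Oas3, Oasl1, Eif2ak2, Zbp1, Tlr3, Dtx3l, Parp9, Gbp7, Ifi35 and Xaf1. Ifit3 gave 26.6% of the sum in CPC3 and 15.7% of that in CPC7. Without it the sums were 12261 CPM in CPC3, 5832 CPM in CPC7 and up to 2051 CPM in the rest.

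Smaller numbers of the genes were high in other cells. CPC6 had 11 high genes beside 2.66% of all genes, CPC5 had 7 beside 3.32% and CPC12 had 7 beside 3.02%. CPC11 had 3 beside 1.78%, CPC10 had 2 beside 5.73% and CPC9 had 1 beside 3.2%. None of the 40 genes was high in CPC1 (2.86% of all genes), CPC2 (2.66%), CPC4 (1.83%) or CPC8 (2.66%). Among these high genes CPC3 had the higher level except for Trim25, with 65.5 CPM in CPC10 against 32.7 CPM in CPC3. Rtp4 in CPC12, Irf1 in CPC6 (40.4 against 76.7 CPM) and Dhx58 in CPC10 (17.6 against 30.6 CPM) came nearest to CPC3. Usp18 was high in CPC5 (18.5 CPM), CPC6 (20.7), CPC11 (29.4) and CPC12 (78.0), against 395 CPM in CPC3. Outside CPC3 and CPC7, Rtp4 reached 225 CPM and Ifit1 121 CPM in CPC12, and Irgm1 reached 557 CPM in CPC6. For Rtp4 that level exceeded the 101 CPM of CPC7, whereas for Ifit1 and Irgm1 it did not.

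**Figure D3:**
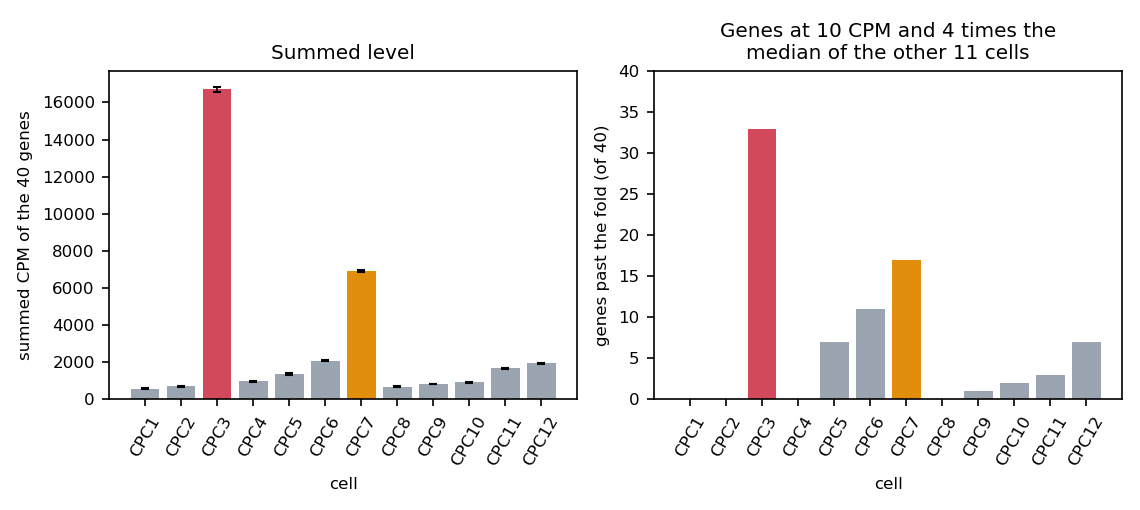
Summed CPM of the 40 genes by cell with exact 95% Poisson intervals (left), and the number of the 40 genes past the fold in each cell (right). CPC3 stands at 16708 CPM and 33 genes, CPC7 at 6920 CPM and 17 genes, and the other 10 cells lie between 550 and 2083 CPM with 0 to 11 genes.

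Effectors that act directly on viral RNA, on translation or on viral particles were the largest group. Of 14 effectors 11 were high in CPC3 and 6 in CPC7, with sums of 9707 CPM and 2753 CPM beside 131 to 378 CPM in the other 10 cells. Ifit3, an RNA-binding protein of the tetratricopeptide family, had the highest level of the list per kilobase of exon in CPC3, at 2548 CPM per kb. It was at 4447 CPM in CPC3 (16865 counts) and 1088 CPM in CPC7, with 0.180 CPM as the lowest, 5.70 as the median and 31.3 as the highest of the other 10 cells. Its relative Ifit1, which binds foreign RNA caps, was at 1665 CPM in CPC3 and 576 CPM in CPC7, against 0 to 121 CPM and a median of 4.90 CPM elsewhere. Neither gene overlapped between CPC3 or CPC7 and the other 10 cells.

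Ifit2, the third of these neighbours on chromosome 19, behaved differently. It was at 781 CPM in CPC3 but at 5.90 CPM in CPC7, below the median of 29.7 CPM of the other 10 cells, which ranged from 0 to 48.2 CPM. The genes lie close together in mm10, with Ifit2 at chr19:34550694-34576419, Ifit3 at chr19:34583531-34588731 and Ifit1 at chr19:34640871-34650009. Ifit3 shares 41.1% of its 75-base words with Ifit3b, so reads of these genes can be lost or moved under unique mapping, whereas Ifit2 shares none.

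Rsad2 (chr12:26442746-26456452) encodes viperin, an enzyme that makes a chain-terminating nucleotide. It had 3228 counts in CPC3 (851 CPM, 95% interval 822 to 881), 1 count in CPC2 and 0 counts in the other 10 cells, CPC7 included. Against CPC7 this is at least 1492-fold, taking 3 counts as the limit in CPC7. Cmpk2, a nucleotide kinase that lies beside Rsad2 in the genome and is no gene of the list, was at 301 CPM in CPC3, at 0 in CPC7 and at no more than 2.39 CPM elsewhere.

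The oligoadenylate synthetases (Oas genes), which make the messenger that activates RNase L, and their relatives were split as well. Oasl2, a family member that carries a ubiquitin-like tail, was high in both cells, at 451 CPM in CPC3 and 278 CPM in CPC7 against 0 to 47.8 CPM elsewhere. Oas1a was at 198 CPM in CPC3, 15.2 CPM in CPC7, 10.00 CPM in CPC8 and 0 in the other 9 cells. It shares 47.6% of its 75-base words with Oas1g, so its level is uncertain. Oas3 had 89 counts in CPC3 (23.5 CPM) and none in any other cell, which is at least 27.0-fold against 3 counts in CPC1, the library with the highest such limit. Oasl1 was at 22.7 CPM in CPC3 and 0 in CPC7, and 3 of the other 10 cells held counts of it, up to 7.45 CPM. Oas2 had 19 counts in CPC3 (5.01 CPM), under the limit of 10 CPM.

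Among the remaining effectors, Bst2 (tetherin, which holds budding virus at the cell surface) was at 834 CPM in CPC3 and 647 CPM in CPC7, above the highest of the other 10 cells at 147 CPM. Mx2, a dynamin-like GTPase, was at 219 CPM in CPC3, 39.0 in CPC12, 21.3 in CPC7, 14.9 in CPC6 and 6.71 in CPC4, and at 0 in the other 7 cells. Its sister Mx1 had 7 counts in CPC3 (1.85 CPM) and none elsewhere, which by the same limit is at least 2.12-fold and near the limit of detection. Eif2ak2, the kinase PKR that halts translation, was at 156 CPM in CPC3 and 46.6 CPM in CPC7 within a range of 13.6 to 68.8 CPM elsewhere, and its fold of 4.02 was the smallest of the high genes. Samhd1, which degrades nucleotides needed by viruses, was not high in CPC3, at 50.9 CPM. Its 74.2 CPM in CPC7 was close to the 71.4 CPM of CPC2.

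Of the 5 sensors of foreign nucleic acid, 4 were high in CPC3 and 1 in CPC7. Zbp1, a sensor of left-handed nucleic acid, was at 277 CPM in CPC3 and 2.85 CPM in CPC7, and at 0 to 7.03 CPM in the other 10 cells. Ifih1 (MDA5, a sensor of long double-stranded RNA) was at 129 CPM in CPC3, 5.51 CPM in CPC7 and 0 to 12.0 CPM elsewhere. Tlr3, the endosomal receptor for double-stranded RNA, was at 123 CPM in CPC3, 14.3 CPM in CPC7 and up to 46.2 CPM in CPC10. For these 3 sensors CPC7 lay inside the range of the other cells. Dhx58 (LGP2) had the reverse order, with 30.6 CPM in CPC3 (95% interval 25.3 to 36.7) and 49.8 CPM in CPC7 (44.0 to 56.2), and 0 to 17.6 CPM elsewhere. Ddx58 (RIG-I) was highest in CPC3 at 200 CPM, but it was common in other cells, up to 106 CPM in CPC10, and its fold of 2.94 kept it out of the count.

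Of the 4 transcription factors, Irf7, which amplifies interferon production, was at 383 CPM in CPC3 and 291 CPM in CPC7, above the 0 to 59.5 CPM of the other 10 cells. Irf1 was at 76.7 CPM in CPC3 and 16.5 CPM in CPC7, and CPC7 lay inside the range of 0 to 40.4 CPM of the others. Stat2 was at 58.3 CPM in CPC3 and 84.8 CPM in CPC7, against 2.00 to 46.6 CPM elsewhere, and its fold was 3.73 in CPC3 and 5.42 in CPC7. Irf9, the DNA-binding partner of the Stat proteins, was at 89.6 CPM in CPC3 and 85.8 CPM in CPC7 within 29.6 to 128 CPM elsewhere, so neither cell stood out for it.

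All 6 genes for Isg15, its removal and related ubiquitin or ADP-ribose modification were high in CPC3, and 2 were high in CPC7. Isg15 was at 1078 CPM in CPC3 (95% interval 1045 to 1111) and 827 CPM in CPC7 (803 to 852), against 1.73 to 68.9 CPM and a median of 10.4 CPM elsewhere. Usp18, the protease that removes Isg15 and damps signalling at the type I receptor, was at 395 CPM in CPC3 and 267 CPM in CPC7, against a median of 2.17 CPM. The others were high in CPC3 and not in CPC7. Trim25, the ubiquitin ligase that acts on RIG-I, was at 32.7 CPM in CPC3 and 0 in CPC7, while CPC10 had the highest level at 65.5 CPM. The partners Dtx3l and Parp9 were at 92.0 and 215 CPM in CPC3 and at 17.5 and 76.4 CPM in CPC7. Parp14 was at 104 CPM in CPC3 and 11.6 CPM in CPC7, inside the range of 0 to 22.5 CPM of the other cells.

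All 6 interferon-inducible GTPases were high in CPC3 and 4 of them in CPC7. Irgm1, which regulates the other immunity-related GTPases, had the highest basal level of the group per kilobase of exon, with a median of 21.9 CPM per kb over the 10 cells. It was at 1344 CPM in CPC3 and 1012 CPM in CPC7, against 31.6 to 557 CPM elsewhere. Gbp3 was at 175 CPM in CPC3 and 150 CPM in CPC7, while 6 of the other 10 cells had 0 counts and the highest was CPC5 at 23.9 CPM. Iigp1 was at 339 and 179 CPM in the 2 cells with a highest value of 14.1 CPM elsewhere, and Gbp2 was at 121 and 66.0 CPM with a highest value of 44.4 CPM. Igtp differed, with 227 CPM in CPC3 and 12.2 CPM in CPC7, inside the range of 0 to 22.8 CPM of the other cells. Gbp7 was at 65.7 CPM in CPC3 and 31.8 CPM in CPC7, the latter a fold of 3.63 that fell short of 4.

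Of the 5 remaining genes 4 were high in CPC3. Ifi44 was nearly equal in CPC3 (342 CPM) and CPC7 (319 CPM), with 0 counts in 5 of the other 10 cells and 38.4 CPM as their highest. Xaf1, an antagonist of an inhibitor of apoptosis, was at 467 and 223 CPM against 14.8 to 162 CPM. Rtp4, a chaperone of receptors, was at 347 and 101 CPM against 2.00 to 225 CPM. Ifi35 was at 142 and 107 CPM against 19.5 to 63.9 CPM. Ifi27 went the other way, at 148 CPM in CPC3 and 147 CPM in CPC7, below all other cells, which ranged from 167 to 436 CPM. It was the 1 gene of the list that was lower in CPC3 than the median of the other 11 cells.

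Members just past the fold in CPC3 were Eif2ak2 at 4.02 times and Ifi35 at 4.90 times the median of the other cells. Just short of it were Stat2 at 3.73 times and Ddx58 at 2.94 times. Oas2 was 8.39 times the level of 3 counts but under 10 CPM. In all, 7 genes were not high in CPC3: Mx1, Oas2, Samhd1, Ddx58, Irf9, Stat2 and Ifi27.

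CPC3 and CPC7 were then set directly against each other, a comparison chosen after their values had been seen. For 15 of the 40 genes CPC3 was at 10 CPM or more and at least 4 times CPC7, beside 5.29% of all genes. None of the 40 was at 10 CPM and 4 times higher in CPC7, beside 6.66% of all genes. The 15 were Ifit2, Ifit3, Rsad2, Mx2, Oas1a, Oas3, Oasl1, Ifih1, Zbp1, Tlr3, Irf1, Trim25, Dtx3l, Parp14 and Igtp. A further 16 genes, all at 10 CPM or more in either cell, were within 2 times of each other in the 2 cells, beside 53.2% of all genes at that level, and 12 of these were high in CPC3, among them Isg15, Usp18, Bst2, Irf7, Irgm1, Gbp3 and Ifi44. Of the list, 5 genes had 0 counts in CPC7 (Rsad2, Mx1, Oas3, Oasl1 and Trim25). The total count of CPC7 was larger than that of CPC3, 5258541 against 3792589. The log2 ratio of CPC3 to CPC7 had a median of 1.51 and quartiles of 0.40 and 3.31 over the 38 genes of the list that reached 10 CPM in either cell, beside a median of −0.27 and quartiles of −1.13 and 0.65 over the 8497 such genes of the table. Examples of the ratio were 1.07 for Ifi44, 1.30 for Isg15, 4.09 for Ifit3, 97.1 for Zbp1 and 133 for Ifit2. They compare 2 libraries and have no replicate check.

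**Figure D4:**
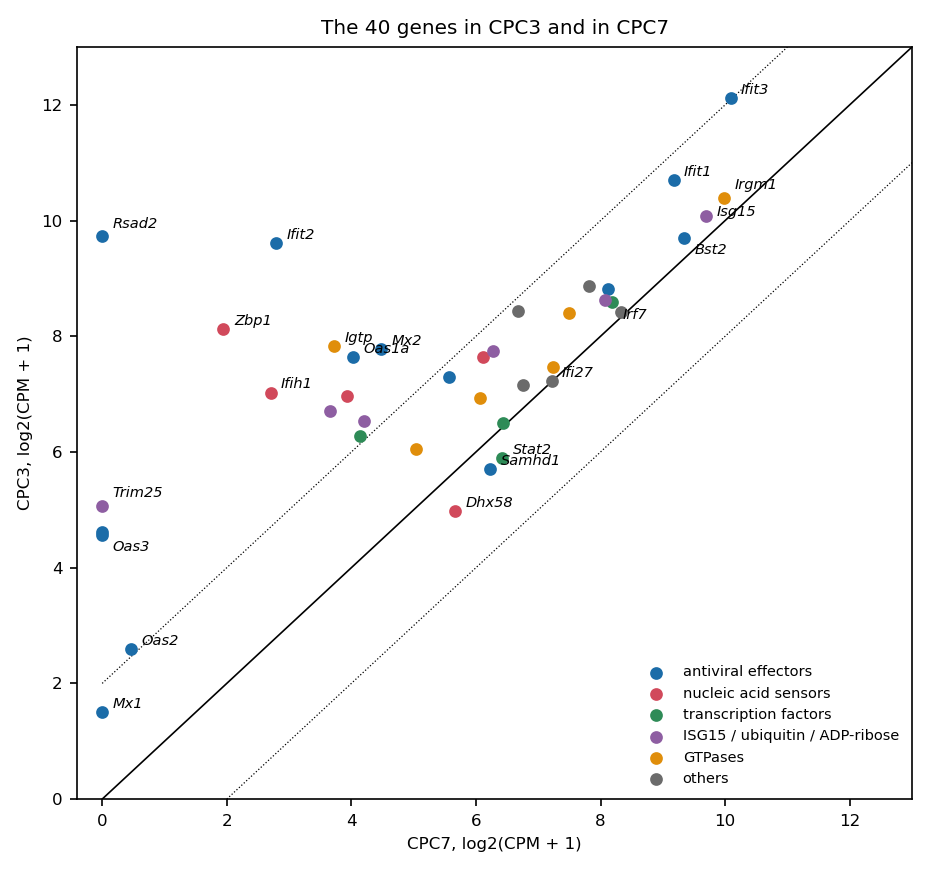
Level of each of the 40 genes in CPC7 (horizontal) and CPC3 (vertical), as log2(CPM + 1), coloured by role. The solid line marks equal values and the dotted lines a 4-fold difference of CPM + 1. Isg15, Bst2 and Irgm1 lie near the solid line, whereas Rsad2, Ifit2, Zbp1 and Ifih1 lie far above the upper dotted line.

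The basal level was read in the 10 cells other than CPC3 and CPC7. Of the 400 values of 40 genes in 10 cells, 73.75% had a count, beside 76.3% for all genes with a count in any cell, and 46.75% reached 10 CPM, beside 54.5%. The summed level ranged from 550 CPM in CPC1 to 2083 CPM in CPC6. The median of a gene over these cells was 10 CPM or more for 16 genes and under 1 CPM for 10 genes. Medians of 50 CPM or more were found for 4 genes: Ifi27, Irgm1, Ddx58 and Irf9. In all, 16 genes had a count in each of the 12 cells. Rsad2 had at most 0.247 CPM in these 10 cells, and Oas3 and Mx1 had no count. Reducing all cells to the total of CPC1 left 40 genes with a count in CPC3, 35 in CPC7 and 22 to 34 in the other 10 cells.

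Levels of the genes also varied together among cells other than CPC3. Over the 11 other cells, the median Spearman correlation of 253 pairs of genes was 0.40, for the 23 genes of the list with a median of at least 5 CPM there, beside 0.018 over all pairs of genes at that level. Without CPC7 as well it was 0.31 over 210 pairs, beside 0.018. The points of a pair share their library and its depth. The list was chosen by values in these same cells, so the correlations are descriptions and nothing further is read from them.

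The rest of the interferon pathway was read from lists that are not part of the 40. Of 21 interferon ligand genes in the table, 2 had a count in any cell, Ifnab with 8 counts and Ifnz with 1 count, both in CPC1, so no ligand was detectable in CPC3 or CPC7. No receptor was high in either cell. Ifnar1 was at 49.0 CPM in CPC3 and 15.2 CPM in CPC7, the latter below the 21.7 to 131 CPM of the other 10 cells, and Ifnar2 was at 106 and 88.4 CPM against 31.2 to 115 CPM. Ifngr1 was at 62.8 CPM in CPC3 and 29.9 CPM in CPC7, the latter again below the range of 34.5 to 211 CPM. Ifngr2 was at 168 and 202 CPM against 60.7 to 192 CPM. Il10rb was at 17.7 and 25.1 CPM against 15.1 to 46.8 CPM. Ifnlr1, the partner specific to type III interferon, was at 1.32 CPM in CPC3, 2.39 CPM in CPC6 and 0 in the other 10 cells.

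Of the kinases and further transcription factors of the pathway, Jak1 was at 251 CPM in CPC3 and 149 CPM in CPC7 against 83.6 to 343 CPM. Jak2 was at 45.1 and 47.7 CPM and Tyk2 at 18.5 and 13.7 CPM, both inside the ranges of the other cells. Stat3 was at 58.0 CPM in CPC3, below the 64.7 to 298 CPM of the other 10 cells, and at 346 CPM in CPC7, above them. Irf2, Irf3 and Irf5 lay at 16.1 to 30.1 CPM in CPC3, inside the ranges of the other cells, and Irf8 had 0 counts in both CPC3 and CPC7. Irf4 had 0 counts in all 12 cells. Of 10 inhibitors, Socs1 was high in CPC3 (26.4 CPM, against 0.190 CPM in CPC7), beside 2.84% of all genes. Socs3 (47.5 CPM) and Adar (43.4 CPM) were high in CPC7, beside 2.61% of all genes. The level of Socs3 in CPC7 was little above the 45.2 CPM of CPC6. None of 13 adaptors and DNA or endosomal sensors was high in either cell.

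**Figure D5:**
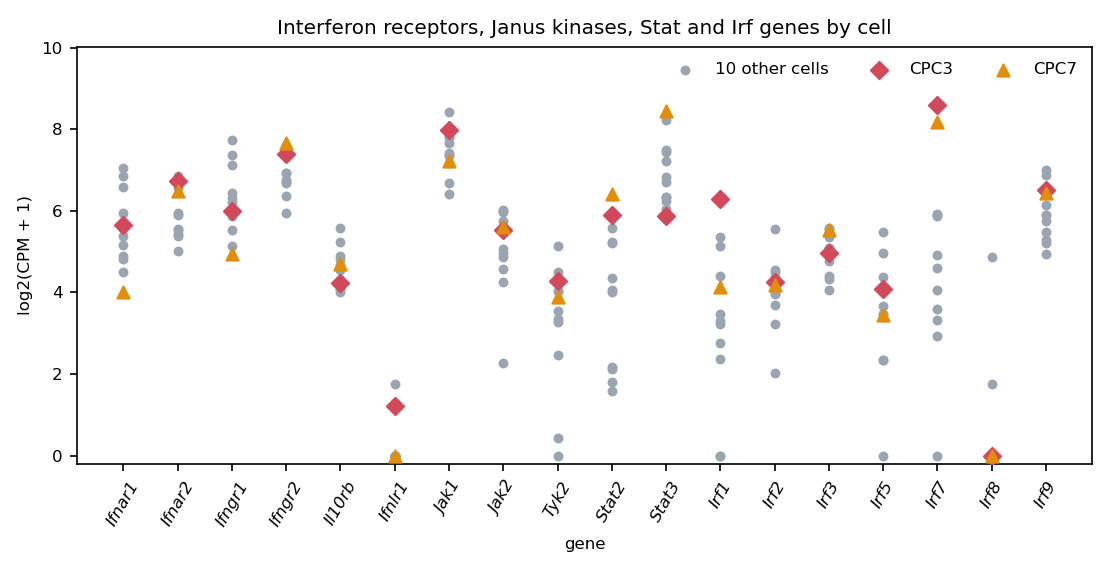
Levels of interferon receptors, Janus kinases, Stat and Irf genes as log2(CPM + 1), for CPC3 (diamonds), CPC7 (triangles) and the other 10 cells (grey points). The points of Irf7 for CPC3 and CPC7 lie above all other cells, whereas those of the receptors Ifnar2 and Il10rb lie among them.

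Interferon-stimulated genes outside the list were read in the same way. Of 80 further genes of this kind in the table, 39 were high in CPC3 (2.84% of all genes) and 14 in CPC7 (2.61%). The median log2 fold of those with a fold in the cell was 2.63 in CPC3 and 1.52 in CPC7. Genes at or under the level of 3 counts both in the cell and in the median of the others had no fold. These medians therefore leave out silent genes and do not cover the same genes. Genes high in both cells included Ifit3b (1596 CPM in CPC3, 220 CPM in CPC7), Phf11d (1131 and 96.6 CPM), Lgals3bp (756 and 520 CPM), Tor3a (422 and 237 CPM) and Gbp9 (132 and 59.1 CPM). Ifitm3, a membrane protein that blocks viral entry, was at 4063 CPM in CPC3 and 3311 CPM in CPC7, but its median in the other 10 cells was already 987 CPM. Genes high in CPC3 with 0 counts in CPC7 included Trim30a (148 CPM), Phf11b (113 CPM), Sp110 (65.7 CPM), Casp1 (53.5 CPM) and Cd274 (40.6 CPM, the checkpoint ligand PD-L1). Uba7, the enzyme that activates Isg15, had the opposite pattern, with 155 CPM in CPC7, 11.6 CPM in CPC3 and 0 to 48.8 CPM elsewhere.

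Further genes of those 39 fell into a few families, given here by their level in CPC3 and then in CPC7. Among nuclear DNA-binding proteins of the Ifi200 and Sp100 families, Ifi203 was at 193 and 12.6 CPM, Ifi204 at 368 and 51.7 CPM and Sp100 at 91.5 and 88.0 CPM. Among GTPases, Irgm2 was at 130 and 62.0 CPM, Ifi47 at 78.8 and 30.4 CPM and Tgtp2 at 24.5 and 52.7 CPM, while Gbp4 (12.9 CPM), Gbp5 (14.2 CPM) and Gvin1 (14.5 CPM) were low in CPC3 and at 0 to 2.85 CPM in CPC7. These GTPases were past the fold in CPC3, and of them Tgtp2 was past it in CPC7 with the higher level.
The Oas1 copies Oas1b (17.9 and 15.2 CPM), Oas1c (21.9 and 10.3 CPM) and Oas1g (20.0 and 0 CPM) and the Ifit1 relative Ifit1bl2 (22.9 and 10.8 CPM) were at low levels in both cells. Schlafen genes were near 0 in CPC7, with Slfn2 at 89.9 and 0.761 CPM, Slfn8 at 30.6 and 0 CPM and Slfn5 at 10.3 and 0 CPM. Of other genes high in CPC3, Rnf213 was at 175 and 97.9 CPM, Znfx1 at 121 and 48.5 CPM, Isg20 at 103 and 37.3 CPM, Parp12 at 90.7 and 102 CPM, Parp11 at 86.0 and 30.8 CPM, Herc6 at 63.3 and 23.6 CPM, Trim21 at 45.4 and 28.1 CPM and Helz2 at 41.1 and 8.75 CPM. Casp4, the sensor of intracellular lipopolysaccharide, was at 100.5 and 28.9 CPM, and Apol9a was at 79.1 and 58.6 CPM. For 5 of the 39 genes another of the 10 cells exceeded CPC3: Casp4 was at 130 CPM and Casp1 at 168 CPM in CPC10, Ifi47 at 123 CPM in CPC2, Apol9a at 83.4 CPM in CPC4 and Slfn8 at 64.0 CPM in CPC12.

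Genes of antigen presentation were high in CPC3 for 5 of 14 (2.84% of all genes), and Tap1 and Psmb8 were high in CPC7 as well (2.61% of all genes). Psmb8, a subunit of the immunoproteasome, was at 161 CPM in CPC3 and 22.6 CPM in CPC7, with CPC7 inside the 0 to 33.6 CPM of the other cells. Tap1, the peptide transporter, was at 103 and 79.7 CPM against 0.545 to 39.1 CPM. H2-K1 was at 888 CPM in CPC3, Psmb9 at 50.6 CPM and Psmb10 at 348 CPM. The class II genes Ciita and Cd74 had 0 counts in all 12 cells.

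Chemokines separated CPC3 from CPC7. Of 6 interferon-induced chemokines in the table, 3 were high in CPC3 (2.84% of all genes) and none in CPC7 (2.61%). Ccl8 was at 326 CPM in CPC3, had 0 counts in CPC7 and reached 0.210 CPM at most elsewhere. Cxcl10 had 55 counts in CPC3 (14.5 CPM) and none in any other cell, at least 16.7-fold against 3 counts in CPC1. Ccl7 was at 1223 CPM in CPC3 and 2.66 CPM in CPC7, but CPC1 had 723 CPM. Of 18 targets of NF-κB 2 were high in CPC3, beside 2.84% of all genes. They were Ccl2 (1818 CPM) and Cxcl1 (177 CPM), with 8.18 and 3.42 CPM in CPC7. For both, another cell came near CPC3, with highest values of 1508 and 160 CPM among the other 10 cells.

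The genes of the table most like the list over the 12 cells were found by Pearson's r of log2(CPM + 1) with the mean of the 40 genes, among 10660 genes that reached 10 CPM in a cell. Among the 10 most alike were Ifit3b (r = 0.94), Dcn (0.93), Gbp5 (0.91), Heph (0.91), Gm4951 (0.91), Ifi203 (0.90), Ddx60 (0.90), Phf11d (0.88) and Ifit1bl2 (0.87). These correlations are descriptions over 12 cells, and the value of CPC3 weighs heavily in them. The mean log2(CPM + 1) of the 40 genes was 7.41 in CPC3, against 2.29 in CPC2, the lowest, and 5.35 in CPC7, the next highest. Dcn, an extracellular matrix proteoglycan of fibroblasts, was at 223 CPM in CPC3, 12.4 CPM in CPC7 and at most 7.44 CPM elsewhere, and it is on a list of 10 fibroblast markers. That list summed to 859 CPM in CPC3, 2080 CPM in CPC7 and 219 to 6764 CPM in the other 10 cells. Over the genes of that list with a fold in the cell concerned, the median log2 fold was −0.89 in CPC3 and 1.35 in CPC7. Past the fold were Dcn and Pdgfra (276 CPM) in CPC3, and Col1a1 (671 CPM), Col3a1 (391 CPM), Dcn and Postn (16.5 CPM) in CPC7. In CPC3 Col1a1 and Col1a2 were instead low, at 12.9 and 22.1 CPM against medians of 167 and 715 CPM in the other 10 cells, and Ddr2 was at 93.9 CPM against 167 CPM, while Col3a1 was at 231 CPM against 71.3 CPM.

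The 40 genes were then placed among all genes by fold in CPC3. Among the 50 genes with the largest fold there, 10 were of the list, 6 were further interferon-stimulated genes and 34 were on neither of these lists, among them the interferon-induced chemokine Ccl8. Rsad2 ranked second by fold. The 10 genes outside the list with the largest fold were Cd53 (1463 CPM), Mmp3 (657), Ivl (569), Serpinb6c (558), Crct1 (1078), Asb5 (510), Dkk3 (349), Ccl8 (326), Cmpk2 (301) and S100a8 (258). In CPC7 the same 10 genes were at 0 to 6.85 CPM. Dkk3, a secreted relative of Wnt inhibitors, had no count in any of the other 11 cells. Ivl and Crct1 are known from the cornified layer of skin, and Ivl was also at 460 CPM in another cell.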

How the data were processed

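Messenger RNA of 12 single cultured CPCs was measured with the Smart-Seq v4 and Nextera XT kits. The authors mapped the reads to mm10 with STAR 2.5.2b and kept unique alignments. What the authors deposited are raw counts, not normalized. The counting program, annotation and strand rule are not given in the sources used here, which leaves overlapping or duplicated genes uncertain: Parp9 and Dtx3l overlap, as do Ifi35 and Gm11626, and of the list Oas1a, Ifit3, Gbp7, Rtp4, Igtp and Ifit1 share over 5% of their 75-base words with another gene.

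From these counts CPM and folds were computed over the 14462 genes with a count, of 21729 in the table; 7267 had none. Levels of different genes were compared per kilobase of exon (GENCODE vM21, same assembly as mm10; 98.4% of symbols matched). Exact Poisson intervals cover 95% counting error. Since the 12 cells count as 1 sample, no test was made. Motifs came from RefSeq promoter windows. Named genes were the 40 of the list, list genes high in CPC3, receptors, Janus kinases, Stat and Irf genes, the 10 most alike and the 10 with the largest fold; some genes that this rule selects are not reported here. The 40 genes, the lists and the settings were chosen with earlier results of these data known. Alternatives changed the scaling, reference, thresholds or depth, or dropped 1 cell at a time. Scripts were tested on simulated data. Computations ran in Python 3.11.15 with scipy 1.17.1, pandas 2.3.3, numpy 2.4.6 and, for plots, matplotlib 3.10.9.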

Additional observations from a re-analysis of the deposited data

How the results depend on the processing

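Of 52 alternative values for 9 results, 46 stayed within 1.5 times (counts) or within the spread or counting interval, and none changed sign. With the highest of the other cells as the reference, 10 genes were past the fold in CPC3, none in a second cell, and the median log2 fold in CPC3 was 0.99. With their mean as the reference, 9 genes were past the fold in CPC7. The sum in CPC3 was 19972 CPM with size factors by median of ratios and 21438 CPM with a total without mitochondrial and top 50 genes. Leaving out each cell in turn gave 32 to 33 genes past the fold in CPC3 and 11 to 19 in the next cell, the 11 being CPC6 when CPC7 was left out. It gave 34 to 36 genes highest in CPC3, a median of 29.5 to 31.5 genes counted in the other cells, a median sum of 939 to 1163 CPM, a median log2 fold of 3.84 to 4.20 and 9 to 12 genes among the 50 with the largest fold. CPC7 was the next cell in 21 of 23 settings. No paired analysis was possible because the 12 cells form 1 group. At these depths a gene with 0 counts could still lie at up to 0.869 CPM, so the absence of ligand counts in CPC3 and CPC7 is a limit of detection. From 12 cells of 1 group no frequency of cells with raised levels of the list can be given. The correlation without CPC7 was added after the data were seen.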
